A study of Mus musculus with 7 samples.

Results

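Splenic B cells of Batf knockout (KO) mice (3 libraries) and wild-type (WT) mice (4 libraries), all on the C57BL/6J background, were compared by RNA sequencing. B cells of both genotypes were purified on magnetic columns and stimulated in culture for 6 h by 20 µg/mL of lipopolysaccharide (LPS), a bacterial ligand of TLR4, and 20 ng/mL of interleukin-4 (IL-4), so the groups differ in genotype and share the stimulus. Each library was treated as 1 mouse. The labels do not state the age or sex of the mice or the design of the Batf allele, and no unstimulated cells were analysed here. The genes described are those whose symbol is Rab followed directly by a digit. There were 5 among the 752 genes of the deposited table, namely Rab43, Rab35, Rab20, Rab30 and Rab3gap2. The first 4 encode Rab GTPases, and Rab3gap2 encodes a subunit of a Rab regulator. Every gene of that table had passed the authors' own test between these genotypes at a false discovery rate (FDR) of 0.05, so each of the 5 was already known to differ. The values below therefore describe their size, level and spread, and a p-value from the same libraries is no independent evidence of a difference.

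Rab GTPases are small membrane-bound switches of the Ras superfamily that give each vesicle and organelle its identity. A guanine nucleotide exchange factor loads a Rab with GTP, the active form then recruits effectors such as tethers, motors and sorting adaptors, and a GTPase-activating protein ends the cycle. Rabs are held on membranes by prenyl lipids. In B cells, Rab-directed traffic carries internalised antigen receptor to processing compartments, returns receptors to the surface and moves immunoglobulin along the secretory route. BATF is an AP-1 family transcription factor that pairs with JUN proteins on DNA and cooperates there with IRF4 or IRF8, and the series concerns its role in antibody class switching.

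The sequences before the start sites of 4 of the 5 genes are shown because these genes were lower together in Batf KO. Rab30 is not shown. They are the 250 bases before the RefSeq start on the gene's own strand in the GRCm38.p6 build, 5′ to 3′. In the GENCODE M21 annotation, Rab35, Rab20 and Rab3gap2 start further upstream, at 115631908, 11478710 and 185204117. The ends of their windows therefore lie inside these genes as annotated there. Capitals mark 2 kinds of match, the GC box GGGCGG on either strand (CCGCCC when read on the other strand) and the E-box CACGTG. Rab43 has 4 annotated starts, and the most upstream of them is printed.
Rab43 (chr6:87812165-87812414, minus strand): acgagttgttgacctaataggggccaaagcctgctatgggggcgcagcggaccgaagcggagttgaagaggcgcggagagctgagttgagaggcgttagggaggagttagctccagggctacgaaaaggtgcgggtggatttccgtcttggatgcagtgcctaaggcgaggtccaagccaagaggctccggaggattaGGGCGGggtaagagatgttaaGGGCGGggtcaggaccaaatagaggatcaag
Rab35 (chr5:115631737-115631986, plus strand): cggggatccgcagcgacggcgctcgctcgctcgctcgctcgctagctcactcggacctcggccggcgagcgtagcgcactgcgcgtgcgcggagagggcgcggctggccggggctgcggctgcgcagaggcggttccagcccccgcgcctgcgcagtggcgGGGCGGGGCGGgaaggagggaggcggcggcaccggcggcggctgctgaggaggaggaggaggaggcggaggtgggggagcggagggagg
Rab20 (chr8:11478641-11478890, minus strand): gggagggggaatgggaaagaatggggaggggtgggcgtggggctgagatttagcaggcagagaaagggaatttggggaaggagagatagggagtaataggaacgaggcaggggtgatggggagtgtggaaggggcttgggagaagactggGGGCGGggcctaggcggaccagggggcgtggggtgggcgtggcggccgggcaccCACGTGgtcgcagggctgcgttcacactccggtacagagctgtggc
Rab3gap2 (chr1:185203918-185204167, plus strand): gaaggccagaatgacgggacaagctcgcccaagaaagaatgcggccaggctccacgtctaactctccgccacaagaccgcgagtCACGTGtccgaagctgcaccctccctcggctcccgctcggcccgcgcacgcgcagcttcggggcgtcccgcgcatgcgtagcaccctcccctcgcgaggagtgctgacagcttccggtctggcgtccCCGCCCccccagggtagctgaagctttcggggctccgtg
These stretches and the windows before the other Rab43 starts, 7 windows in all of which some overlap, were searched on both strands. Motifs were taken for factors whose own genes are in the table (Batf, Nfil3, Bhlhe40) and for a general promoter element, after the sequences had been seen. The AP-1 site TGANTCA was in 0 of the 7 windows and is in 6.75% of the 32851 mouse windows of this length. The NFIL3 site TTANGTAA was also in 0 of the 7 and is in 2.06% of all windows. The E-box CACGTG, the kind bound by BHLHE40, was in 2 of the 7 windows and is in 6.02% of all windows. It lay at bases 46 to 41 before the RefSeq start of Rab20 and at bases 166 to 161 before that of Rab3gap2. The Rab20 match lies inside the gene as annotated in GENCODE M21. The GC box was found in windows of all 4 genes, in 6 of the 7 windows, and is in 32.7% of all windows. Its match at Rab3gap2 and some of those at Rab43 lie inside the genes as annotated in GENCODE M21. The bases G and C made up 58.0% of the printed window of Rab43, 78.8% for Rab35, 65.2% for Rab20 and 68.4% for Rab3gap2. In the other Rab43 windows they made up 50.8% to 71.2%, and the median over all windows was 52.4%. The shares over all windows were not matched for base content. A match or its lack is a property of these letters only, and binding was not measured.

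The effective depth of a library, recovered as count divided by CPM (the count scaled to a common library total), was 23675459 to 30844920 reads for Batf KO libraries and 24891094 to 44728937 for WT libraries. Batf itself had 63.4, 70.3 and 65.8 CPM in the Batf KO libraries, against 315, 307, 333 and 322 CPM in the WT libraries, so each library matched its label and a level of 20.8% of WT remained. The WT libraries were alike in pairs over the table, replicate 1 with 2 and replicate 3 with 4, with a chi-square per degree of freedom of 18.5 and 20.8 within these pairs and 33.3 to 49.8 between them. These pairs follow the order of the sample numbers in the titles, in which the Batf KO numbers lie between those of WT replicates 1 and 2. The labels do not say what the numbers stand for. Against either WT pair alone, the log2 fold change of all 5 Rab genes was also below 0. Of 10 B cell markers, Ms4a1 and Blk were in the table. Their summed level was 943 to 1006 CPM in Batf KO and 607 to 687 CPM in WT. Of 15 T and NK cell markers Cd8b1 and Tbx21 were in the table and lay on opposite sides (sum 5.70 to 7.88 CPM in Batf KO, 2.81 to 12.6 CPM in WT). Cd8b1 was higher, at 5.24 to 7.42 CPM in Batf KO against 1.48 to 2.59 CPM in WT, and Tbx21 lower, at 0.186 to 0.465 CPM in Batf KO against 1.25 to 10.1 CPM in WT. Of 15 myeloid markers Zbtb46 (73.6 to 89.6 CPM in Batf KO, 47.4 to 65.6 CPM in WT) and of 14 erythroid and platelet markers Pf4 (0.760 to 1.04 CPM in Batf KO, 0.281 to 0.627 CPM in WT) were in the table. Of 8 plasma cell markers, Irf4 and Prdm1 were (sum 1376 to 1572 CPM in Batf KO, 606 to 740 CPM in WT), and nearly all of that sum was Irf4. Prdm1 was lower, at 5.20 to 6.75 CPM in Batf KO against 7.30 to 13.0 CPM in WT. The markers outside the table have no level here, and the part of other cells in the Rab results was not tested.

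All 5 Rab genes were lower in Batf KO. Rab43, Rab30 and Rab20 fell more than 2-fold, while Rab35 fell 1.57-fold and Rab3gap2 fell 1.35-fold. In every case the highest Batf KO library lay below the lowest WT library. Across all genes, 49.2% of the 667 genes that passed a mean level of 1 CPM were lower at an adjusted p under 0.05 (quasi-likelihood test of edgeR), 48.6% were lower with no overlap between the groups, and 10.9% were lower by at least 2-fold. The other calls of that test, 50.8% of the genes, were higher, and 47.5% were higher with no overlap between the groups. Of the 328 genes that were lower, 324 showed no overlap, so this separation is common to nearly all of the 667 genes. The log2 fold change ran from -1.93 for Rab43 to -0.43 for Rab3gap2, with Rab35 at -0.65. The median was 0.30 over all 667 genes and -0.64 over the 328 that were lower. Whether the Rab genes as a group differ from these was not tested. For each Rab gene the exact two-sided permutation p over the 35 ways to assign the libraries was 0.0286, the smallest that 3 against 4 libraries can give. In RNA from whole cultures, fewer cells of a type and less RNA per cell cannot be told apart.

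**Figure D1:**
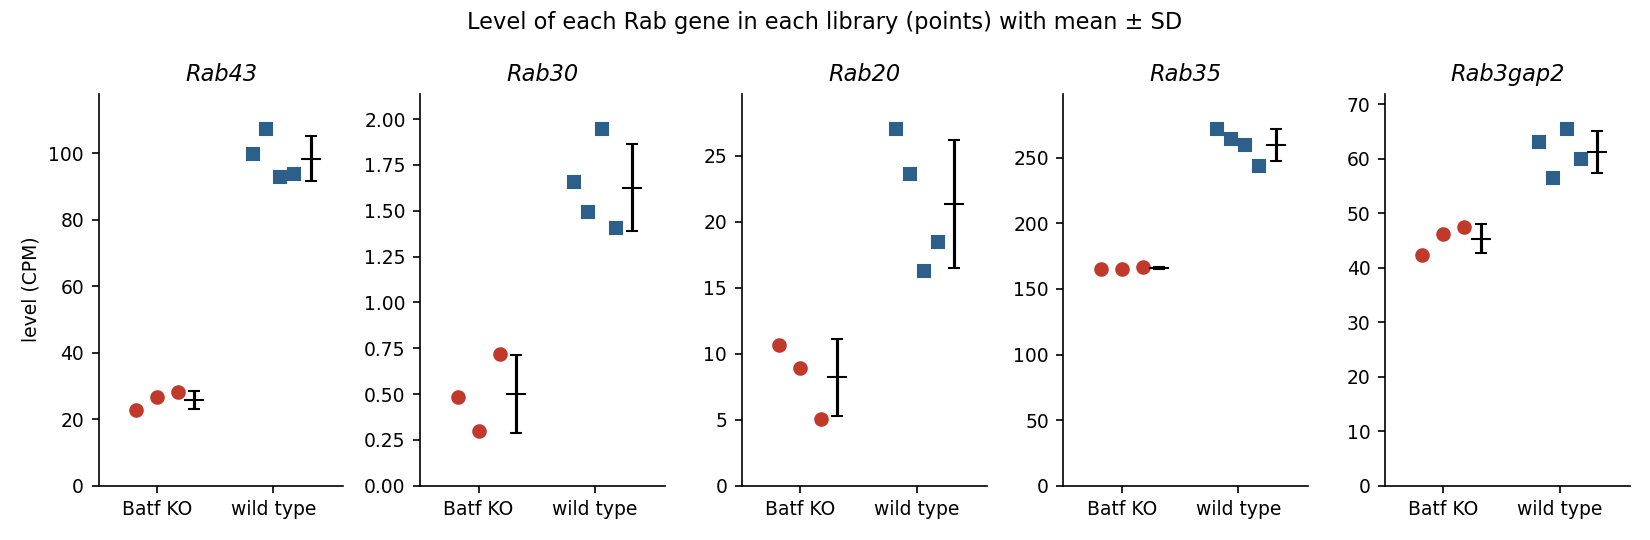
Level in CPM (vertical axes, each starting at 0) of the 5 Rab genes in the 3 Batf KO libraries (circles) and 4 WT libraries (squares), with the mean ± SD of each group beside the points. For each gene the Batf KO points lie below all WT points, and as a ratio of the lowest WT to the highest Batf KO level the gap is smallest for Rab3gap2 and largest for Rab43.

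Rab43 showed the largest decrease. Rab43 is a Golgi-associated Rab that acts in traffic between the endoplasmic reticulum and the Golgi, and in mouse dendritic cells it is needed for efficient cross-presentation of antigen. Its level was 22.7, 26.7 and 28.1 CPM in the Batf KO libraries, against 99.9, 107, 92.8 and 93.8 CPM in the WT libraries. The lowest WT library was 3.30 times the highest Batf KO library, and neither group varied by more than 1.24-fold within itself. The mean was 25.8 ± 2.80 CPM in Batf KO (SD, n = 3) and 98.4 ± 6.69 CPM in WT (SD, n = 4), which leaves 26.2% of the WT level. The log2 fold change was -1.93 (SE 0.10), with an edgeR adjusted p of 2.57e-06 over the 667 genes and 7.61e-05 when adjusted over all 19734 genes the authors had tested. It ranked 15 among the 667 genes by size of decrease on the log2 scale, and 5 by p-value in the authors' deposited table, with an FDR of 4.64e-60 there. The reads behind these levels were 2085 in the 3 Batf KO libraries and 13695 in the 4 WT libraries.

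Rab43 lies on chromosome 6 from 87788853 to 87812164 on the minus strand (GRCm38, GENCODE M21) and has 6 blocks of exons. The same annotation holds a longer transcript unit, Gm45140 (87788861 to 87835795), on the same strand. It joins exons of the upstream neighbour Isy1 to the last exons of Rab43 and shares 4164 bases, 75.4% of the exonic length of Rab43. No source used here states how reads in shared exons were counted, so reads of the joined transcript and of Rab43 cannot be told apart. Isy1, a splicing factor gene, and Gm45140 are not in the table, nor is any of the 6 protein-coding neighbours within 100 kb. Being outside the table means no more than missing the authors' threshold.

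**Figure D2:**
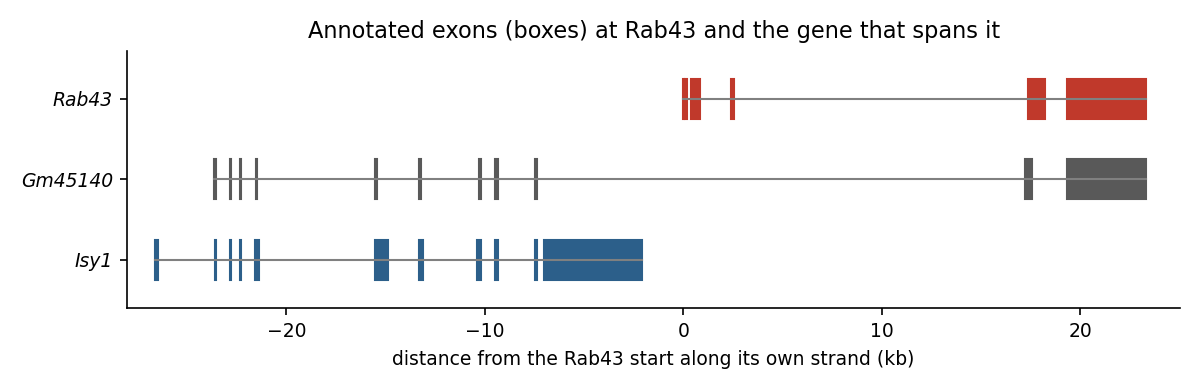
Exons (boxes) and spans (lines) of Rab43, Gm45140 and the neighbour Isy1, drawn by distance in kb from the Rab43 start along its own strand. Gm45140 shares 4164 exonic bases with Rab43 at its far end and none of its first exons.

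Rab30 and Rab20 were the other Rab genes lower by more than 2-fold, and both varied more than Rab43. Rab30, a Golgi Rab needed for the structure of that organelle, was carried by few reads. There were 15, 8 and 17 reads in the Batf KO libraries, against 66, 45, 87 and 35 in the WT libraries. These correspond to 0.486, 0.297 and 0.718 CPM in Batf KO, against 1.66, 1.49, 1.95 and 1.41 CPM in WT, and the groups did not overlap. The mean over all 7 libraries was 1.14 CPM, just above the minimum of 1 CPM, a level it reached through the WT libraries. The log2 fold change was -1.72 (SE 0.30), with an edgeR adjusted p of 0.000901, or 0.0267 over all 19734 genes. The ratio of WT to Batf KO reads per library size was 3.40, with an exact 95% counting interval of 2.42 to 4.88 that covers counting error only. Rab30 lies on chromosome 7 from 92741603 to 92844535.

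Rab20, an endosomal Rab that in macrophages is induced by interferon gamma and acts in phagosome maturation, had the widest relative spread of the 5 among WT libraries. It was measured at 10.7, 8.91 and 5.03 CPM in the Batf KO libraries, against 27.0, 23.6, 16.3 and 18.5 CPM in the WT libraries. Batf KO replicate 3 was lowest, and the WT replicates 1 and 2 lay above replicates 3 and 4, the same pairs that were alike over the whole table. The coefficient of variation was 35.2% in Batf KO and 22.9% in WT, against medians of 8.89% and 10.5% over the 667 genes. The mean was 8.20 ± 2.89 CPM in Batf KO (SD, n = 3) and 21.3 ± 4.88 CPM in WT (SD, n = 4). The log2 fold change was -1.37 (SE 0.27), with an edgeR adjusted p of 0.00172. Adjusted over all 19734 genes the edgeR p was 0.0509, and Rab20 was the 1 Rab gene that missed the threshold there, where 22.8% of the 667 genes were called lower and 20.1% higher. It lies on chromosome 8 from 11453518 to 11478710 on the minus strand. Its 1.39 kb of exons overlap the noncoding RNA E230013L22Rik on the opposite strand by 356 bases (25.6%), and without a stated strand setting reads of that stretch cannot be assigned.

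Rab35 was the most abundant of the 5 and the most uniform within groups. It recycles endocytosed receptors to the plasma membrane and is activated by DENND1 proteins. Its level was 165, 166 and 167 CPM in the Batf KO libraries, against 272, 264, 259.6 and 244 CPM in the WT libraries. The Batf KO libraries differed among themselves by a coefficient of variation of 0.402%, and the WT libraries by 4.61%. With 5096, 4462 and 3942 reads in the Batf KO libraries, counting error alone gives a larger spread than 0.402%. That value is therefore no measure of how alike the mice were. The mean was 166 ± 0.667 CPM in Batf KO (SD, n = 3) and 259.9 ± 12.0 CPM in WT (SD, n = 4), or 63.8% of WT. The log2 fold change was -0.65 (SE 0.06), with an edgeR adjusted p of 3.66e-05, or 0.00108 over all 19734 genes. Rab35 lies on chromosome 5 from 115631908 to 115647736 on the plus strand.

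Rab3gap2, the noncatalytic subunit of the complex that inactivates Rab3 and that also activates Rab18, changed least. It was measured at 42.3, 46.3 and 47.5 CPM in the Batf KO libraries, against 63.1, 56.4, 65.5 and 60.1 CPM in the WT libraries. The lowest WT library exceeded the highest Batf KO library by a factor of 1.19. The log2 fold change was -0.43 (SE 0.08), with an edgeR adjusted p of 0.00128, or 0.0380 over all 19734 genes. Its partner gene Rab3gap1, the catalytic subunit, is not in the table. Rab3gap2 lies on chromosome 1 from 185204117 to 185286759, and 2034 bases (18.8%) of its exons overlap Iars2 on the opposite strand.

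**Figure D3:**
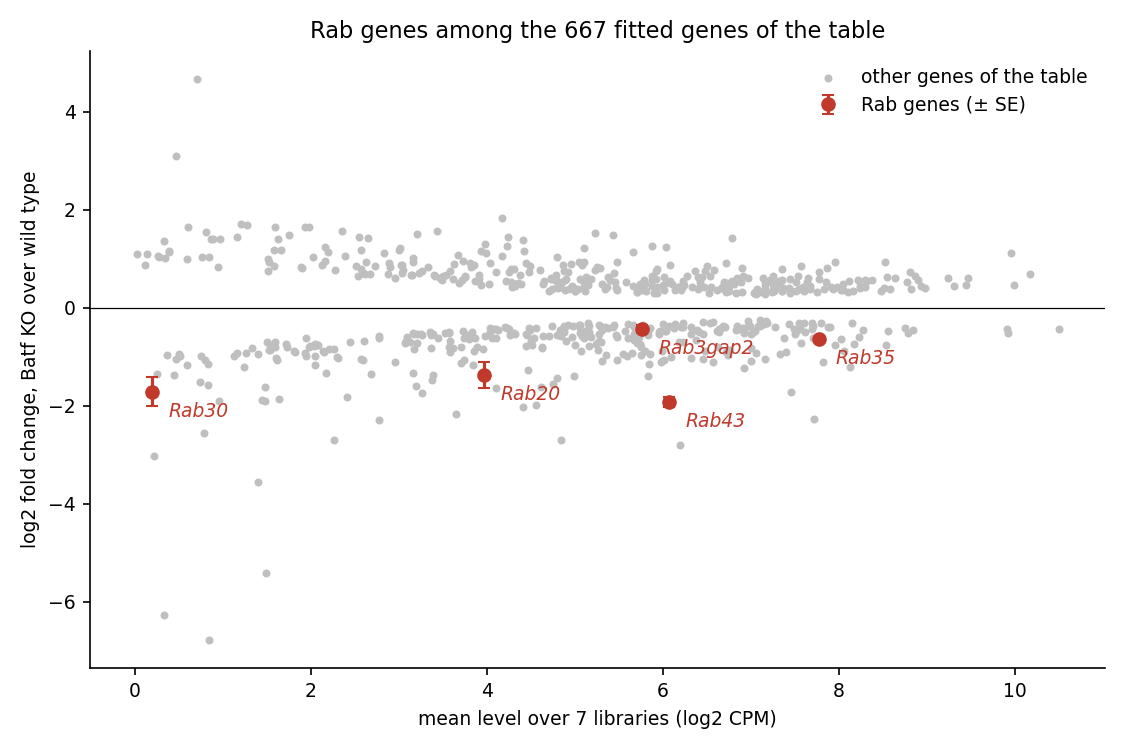
Log2 fold change, Batf KO over WT (vertical axis), against the mean level over the 7 libraries on a log2 CPM scale (horizontal axis) for the 667 fitted genes. Rab genes are labelled with bars of ± SE, from Rab43 at -1.93 to Rab3gap2 at -0.43, and the empty band at 0 reflects that the table holds selected genes only.

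Levels of different genes were compared per kilobase of annotated exon, as CPM per kb. In Batf KO, Rab35 stood at 58.8 ± 0.236 CPM per kb, followed by Rab20 at 5.89 ± 2.07, Rab43 at 4.67 ± 0.507, Rab3gap2 at 4.20 ± 0.249 and Rab30 at 0.0519 ± 0.0219 CPM per kb (SD, n = 3). In WT the order was Rab35 at 92.2 ± 4.25, Rab43 at 17.8 ± 1.21, Rab20 at 15.3 ± 3.50, Rab3gap2 at 5.67 ± 0.362 and Rab30 at 0.169 ± 0.0246 CPM per kb (SD, n = 4). Rab43 and Rab20 differed by less than 1 SD of Rab20 in both groups, and Rab43 and Rab3gap2 differed in Batf KO by less than 1 SD of Rab43. Lengths are from GENCODE M21, over all annotated transcripts of a gene, and the transcripts used by these cells are not known. They include the exonic bases shared with other genes, 75.4% for Rab43, 25.6% for Rab20 and 18.8% for Rab3gap2. If reads in shared bases were not counted, these levels are too low and the order may differ.

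With 1 library left out at a time, the log2 fold change of Rab43 ran from -1.99 to -1.84, that of Rab35 from -0.68 to -0.63 and that of Rab3gap2 from -0.47 to -0.39. Rab30 moved more, between -2.04 without Batf KO replicate 3 and -1.46 without Batf KO replicate 2. Rab20 ran from -1.61 without Batf KO replicate 1 to -1.12 without Batf KO replicate 3. Against WT replicates 1 and 2 alone the Rab20 value was -1.62, and against WT replicates 3 and 4 alone it was -1.07, a comparison chosen after seeing the data. Each gene stayed past an edgeR adjusted p of 0.05 over the fitted genes in all of these fits. So did nearly all genes of the table, which were selected in these same libraries. Without 1 library, 323 to 339 of the 667 genes were called higher and 326 to 328 lower. Against WT replicates 1 and 2 alone the calls were 303 and 318, and against WT replicates 3 and 4 alone 335 and 326.

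**Figure D4:**
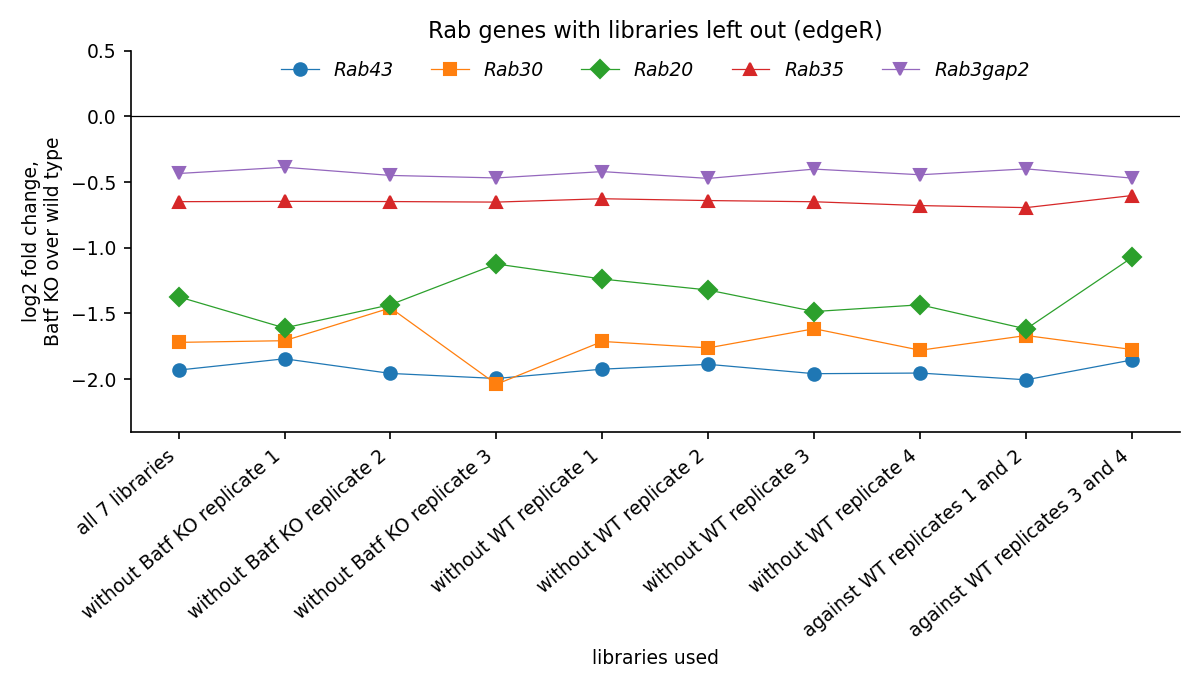
Log2 fold change, Batf KO over WT, of the 5 Rab genes (vertical axis) in edgeR fits of all 7 libraries, without 1 library at a time and against each WT pair alone (horizontal axis). Rab43, Rab35 and Rab3gap2 form nearly flat lines, whereas Rab30 and Rab20 shift with the libraries used, and no value reaches 0.

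The table holds 4 of the 59 annotated protein-coding Rab GTPase genes of GENCODE M21, a share of 6.78%, and all 4 were lower in Batf KO. Of the 19734 genes the authors tested, 1.86% are listed as lower and 3.81% are listed in either direction. How many of the 59 the authors tested is not known, and no test was made. The other Rab GTPase genes, among them the endosomal Rab5 and Rab7 genes, the recycling Rab11 genes and the secretory Rab27 genes, have no value here.

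Few genes that act on Rabs were in the table. Of 51 exchange factor genes, 48 of which were matched to the annotation, 3 were in the table, all lower, a share of 6.25% of the matched genes beside 1.86% listed as lower over all genes the authors tested. Dennd1b, which encodes an activator of Rab35, was measured at 54.2, 54.7 and 52.0 CPM in Batf KO, against 75.2, 73.8, 66.3 and 82.2 CPM in WT, with no overlap between the groups (log2 fold change -0.47, SE 0.08, edgeR adjusted p = 0.00107). Dennd5b, a further gene of the DENN domain family, fell 1.43-fold to 9.25 ± 0.139 CPM in Batf KO (SD, n = 3), against 13.2 ± 0.513 CPM in WT (SD, n = 4). Ric1, part of the activator of Rab6a, fell 1.30-fold. Dennd1b and Dennd5b also passed over all 19734 genes, while Ric1 did not (edgeR adjusted p = 0.0818).

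Of 41 GTPase-activating protein genes, 4 were lower and 1 higher, Rab3gap2 included, shares of 9.76% and 2.44% beside 1.86% and 1.95% over all genes the authors tested. How many of either list the authors tested is not known, and no test was made. Tbc1d30, a TBC domain gene, was at 0.875, 1.41 and 0.971 CPM in Batf KO, against 3.36, 2.36, 4.07 and 6.55 CPM in WT. The WT libraries differed widely, and the log2 fold change was -1.90 (SE 0.37). Sgsm2 fell 1.47-fold and Tbc1d14, a regulator of autophagy that binds Rab11, fell 1.25-fold. Tbc1d1, known in muscle for control of glucose transporter traffic, was the 1 inactivator that rose, to 94.0 ± 4.98 CPM in Batf KO (SD, n = 3) against 70.5 ± 4.44 CPM in WT (SD, n = 4). Of these, Rab3gap2 and Tbc1d1 passed over all 19734 genes. The edgeR adjusted p there was 0.0507 for Tbc1d30, 0.195 for Sgsm2 and 0.0843 for Tbc1d14.

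Among genes for the lipid attachment, membrane cycle and phosphorylation of Rabs, 1 gene in the table was lower and 1 was higher. Lrrk2 encodes a kinase that phosphorylates a subset of Rabs, Rab35 and Rab43 among them. It had 2.92, 4.56 and 5.20 CPM in the Batf KO libraries, against 25.7, 15.1, 14.3 and 20.2 CPM in the WT libraries, and the groups did not overlap. Its log2 fold change was -2.16 (SE 0.27, edgeR adjusted p = 0.000202), a larger decrease than that of any Rab gene, although the difference between these decreases was not tested. Rabggta, a subunit of the enzyme that attaches the lipid to Rabs, rose to 69.4 ± 1.13 CPM in Batf KO (SD, n = 3) against 51.4 ± 2.24 CPM in WT (SD, n = 4). These were 2 of 13 genes on that list, a share of 7.69% each way. Over all genes the authors tested, 1.86% were listed as lower and 1.95% as higher. A count this small says nothing about the list as a group. Both genes passed over all 19734 genes, where 22.8% of the 667 genes were called lower and 20.1% higher.

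Of 62 Rab effector genes 2 were listed, both higher, a share of 3.23% beside 1.95% listed as higher and 3.81% in either direction over all genes the authors tested. A count this small and this near the background says nothing about effectors as a group. Sytl3, a synaptotagmin-like protein that binds Rab27, was at 47.7, 53.2 and 51.1 CPM in Batf KO, against 26.6, 30.4, 26.6 and 31.0 CPM in WT, an increase of 1.77-fold (edgeR adjusted p = 8.18e-05). Optn, the autophagy receptor optineurin that binds Rab8, rose 1.41-fold and did not pass over all 19734 genes (edgeR adjusted p = 0.0761). Leaving out the 5 Rab genes themselves, 11 genes of these Rab regulator and effector lists were in the table, 4 higher and 7 lower. The whole table held 384 genes listed as higher and 368 as lower, which is 1.95% and 1.86% of the genes the authors tested. The split of the 11 genes was not tested. Most genes of these lists are outside the table, and their levels are not analysed here.

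**Figure D5:**
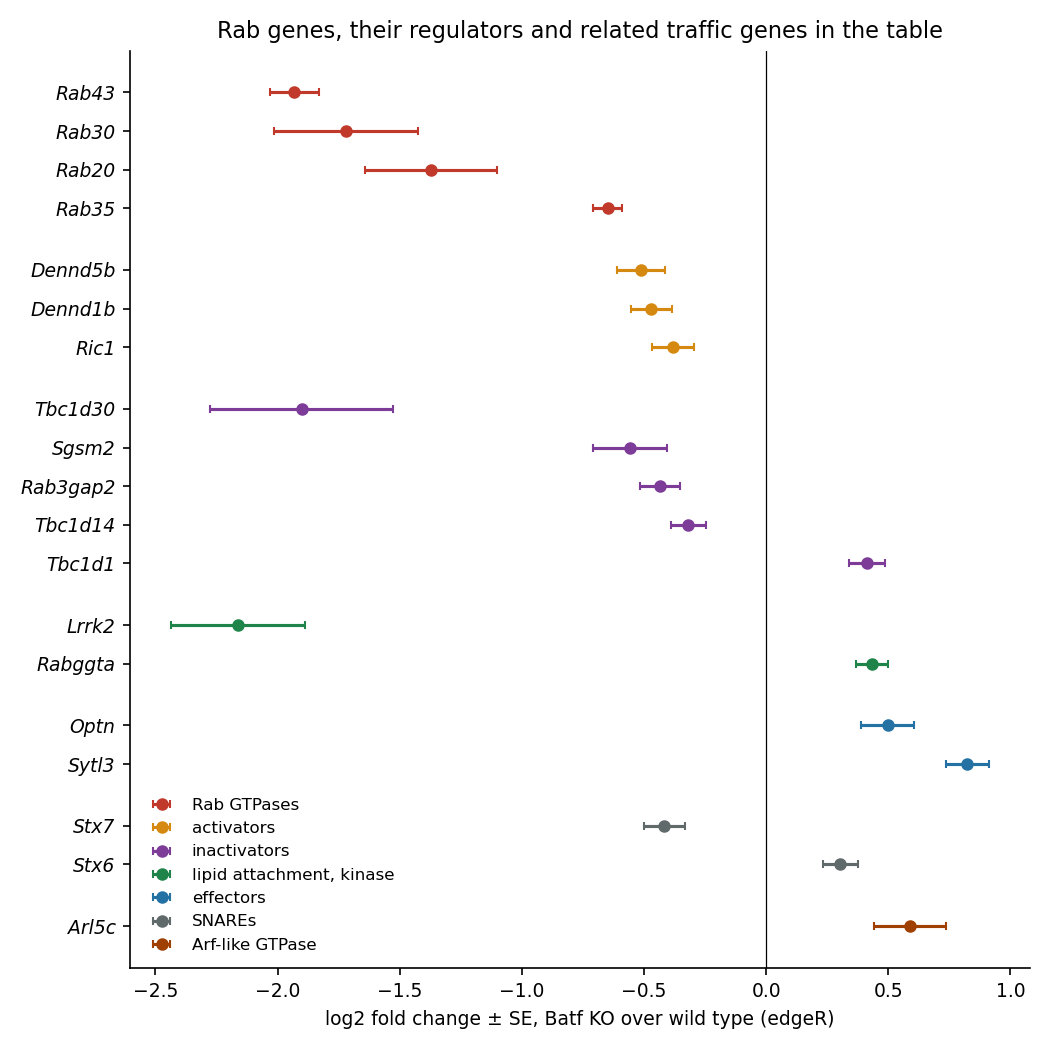
Log2 fold change ± SE, Batf KO over WT (horizontal axis, edgeR), of the Rab genes, the listed genes that act on Rabs, vesicle SNAREs and an Arf-like GTPase, grouped by role from top to bottom. All 4 Rab GTPases and the 3 activators in the table lie below 0. The few genes shown are those the table holds, not whole groups.

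Likeness to Rab43 was measured as the root mean square difference of log2(CPM + 0.5) over the 7 libraries, after centring each gene on its own mean. Gpr55 and Nfil3 were closest among the genes reported, at 0.144 and 0.163. Gpr55, a lipid receptor gene, had 0, 3 and 2 reads in the Batf KO libraries, against 57, 44, 68 and 47 in the WT libraries. It lay below the minimum of 1 CPM, and at such a low level the added 0.5 CPM shrinks its difference, so the likeness depends on that constant. Nfil3, a leucine zipper repressor gene named in the title of the series, was well measured, at 78.6, 75.4 and 72.9 CPM in Batf KO against 253, 247, 246 and 255 CPM in WT. Its log2 fold change of -1.73 (SE 0.06) was smaller in size than that of Rab43.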

How the data were processed

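Total RNA of 7 libraries was sequenced as paired-end libraries, per the labels' protocols. Per the submitters' processing notes, the tools were edgeR 3.03, HTSeq 0.5.3p7 and TopHat2 2.0.6 with the build mm10. Their roles, the annotation, the strand setting and the treatment of shared reads are not stated in these notes. Per the file headers, the deposited table holds the read counts per gene and library, the CPM the authors computed from them, and the authors' comparison (p-value, FDR, likelihood ratio score, log2 fold change and log2 of mean CPM). Its highest FDR is 0.0499. FDR divided by p-value and multiplied by the gene's rank by p-value gives, as a median, 19734 genes tested. Of these, 752 are in the table.

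In R 4.3.3, edgeR 4.0.16 (glmQLFit, quasi-likelihood, two-sided, genotype alone) was run on the counts with the authors' effective library sizes. Genes had to average at least 1 CPM across the 7 libraries (667 genes, 85 left out). The edgeR p-values were adjusted by Benjamini-Hochberg over these genes and, more strictly, over 19734 genes. The stricter adjustment takes genes outside the table, and the 85 left out, at a p of 1. An SE is the log2 fold change divided by the square root of F. The fit was tested on simulated counts for 667 genes, of which 467 had no change. The genes of the table were all selected as different, so the simulation does not give the error rate for them. Single genes were tested by exact permutation of CPM. Alternatives were DESeq2 1.42.0, limma 3.58.1 on log2 CPM, other filters and libraries left out. The design text also mentions replicates of each sample, which are not described further. Each library was treated as 1 mouse, and p-values measure only the spread between these samples, which may in part be technical.

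Named genes were the Rab rows, Batf, listed members of gene lists for Rab regulators, effectors, SNAREs, Arf family GTPases and cell type markers, genes within 100 kb of a Rab gene, and the 3 genes most like Rab43. Some of these are not reported here. The members and lists were chosen with earlier results of these data known. Symbols were matched to GENCODE M21 by Ensembl identifier (742 of 752 matched), and promoter sequences came from RefSeq (GRCm38.p6), which held windows for 4 of the 5 genes.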

Additional observations from a re-analysis of the deposited data

How the results depend on the processing

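Of the 16 alternatives, 14 were planned and the 2 that use a single WT pair were chosen after seeing the data. All 5 Rab genes remained lower under each alternative that gave them a value, and none was higher. The number of Rab genes called lower was 5, with 4 when p-values were adjusted over all 19734 genes (Rab20, edgeR adjusted p = 0.0509) and 4 when the mean had to reach 5 CPM, where Rab30 was not fitted, and it was 5 whichever library was left out. The counts over all genes, 339 higher and 328 lower, became 134 and 152 when adjusted over 19734 genes, which is stricter by construction. With a library left out they ran from 323 to 339 higher and from 326 to 328 lower. Adjusted over 19734 genes, 14 of the 31 named genes that were fitted missed the threshold, and Prdm1 did not pass against WT replicates 1 and 2 (edgeR adjusted p = 0.0668). No result reversed. On a log2 scale with 2 CPM added, the Rab30 difference shrank to -0.54 in limma, and with 0.5 CPM added to -1.10, as the added constant exceeds or nears its level. No paired analysis was possible because the labels give the genotypes no shared replicate numbers. Depth limits Rab30, with 40 reads in the 3 Batf KO libraries.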

Other observations

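Of 29 Arf, Arl and Sar genes 1 was listed, Arl5c, which rose by 0.59 on the log2 scale and did not pass over all 19734 genes (edgeR adjusted p = 0.130). That is a share of 3.45%, beside 1.95% listed as higher over all genes the authors tested.

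Of 69 SNARE and tether genes, Stx7, a syntaxin of late endosomes, fell 1.34-fold, and Stx6, a syntaxin of the trans-Golgi network, rose 1.23-fold. Their edgeR adjusted p over all 19734 genes was 0.0540 and 0.116. Each was a share of 1.49% of the 67 genes matched to the annotation. Over all genes the authors tested, 1.86% were listed as lower and 1.95% as higher.

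A further gene, named Rab5if in GENCODE M21, is in the table under the symbol 1110008F13Rik and was therefore outside the choice by symbol. It was higher, at 29.8 ± 2.05 CPM in Batf KO (SD, n = 3) against 21.5 ± 3.38 CPM in WT (SD, n = 4), with a log2 fold change of 0.48 (SE 0.13) and an edgeR adjusted p of 0.00710, or 0.210 over all 19734 genes. It was singled out after its values were seen.

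In 35 sets of 4 WT values, for the 31 named genes that were fitted and 4 whose mean was under 1 CPM, no library stood apart from the others by Dixon's 95% critical value, where chance gives about 1.75 such sets. With 3 libraries, the Batf KO values were not tested in this way.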
